A study of Mus musculus with 8 samples.

Results

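Transcripts of 7 amino acid transporters were described in tibialis anterior (TA) muscle, a fast-twitch muscle of the lower leg, from mice with and without Klotho. They are *Slc38a2* and *Slc38a4*, *Slc7a1* and *Slc7a2*, *Slc7a5* with its partner *Slc3a2*, and *Slc1a5*. They were taken by gene symbol as a family of plasma-membrane carriers of muscle, with earlier results of these data known. All 7 were among the 12551 counted genes. In KL-/- muscle *Slc38a4* was 2.46-fold lower and *Slc7a2* was 1.70-fold higher than in WT muscle, and the libraries of the 2 genotypes did not overlap for either gene. The other 5 did not pass the test. Of the 7, 1 rose and 1 fell, against 14.0% of all genes called in this comparison, 7.35% higher and 6.67% lower in KL-/- muscle. Of all genes 10.2% had every KL-/- library above every WT library and 9.47% had every one below.

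Muscle takes up and releases amino acids through carriers that differ in what they move. System A carriers such as SNAT2 and SNAT4 bring in small neutral amino acids together with sodium, the CAT proteins let in arginine and lysine, and heterodimers of 4F2hc with a light chain exchange large neutral amino acids such as leucine. Leucine and arginine inside the cell are sensed by the pathway that activates mTORC1, and amino acid shortage raises several carrier genes through the transcription factor ATF4.

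The libraries came from male mice aged 7 weeks, 4 of them WT and 4 KL-/-. The KL-/- mice were homozygous for a mutant Klotho allele in every tissue and, like the WT mice, were bred from heterozygous parents on a mixed background, so a change in muscle cannot be assigned to Klotho made by muscle itself. *Kl* was not among the counted genes, and the genotype labels could not be checked by its transcript. Each library was made from 100 ng of RNA from snap-frozen muscle, and KL-/- replicate 3 carried another batch date in the labels than the other 7 libraries. Each label describes a separate muscle sample, so p-values measure the spread between these samples.

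The 8 libraries held between 20860262 and 29273758 counts on genes, and a count of 3 corresponded to 0.102 to 0.144 CPM, counts scaled to the library total and its TMM factor. Of the 1759 genes called, 922 were higher and 837 lower in KL-/- muscle, and scaling to library totals alone gave 492 higher and 2127 lower. The 8 myofibre markers were abundant in all libraries, with a summed level of 147846 to 169255 CPM in WT and 172475 to 217265 CPM in KL-/- muscle. Some markers of other cells were also called, where 7.35% of all genes were called higher and 6.67% lower. Of 8 fibro-adipogenic markers 3 were called lower in KL-/- muscle, with summed levels of 819 to 3015 CPM in WT and 429 to 1346 CPM in KL-/-, and 2 of 9 macrophage markers were lower, with 63.2 to 135 CPM in WT and 45.5 to 79.3 CPM in KL-/-. Of 6 Schwann cell markers 3 were higher, at 52.7 to 93.8 CPM in WT and 97.9 to 119 CPM in KL-/-. Of 8 endothelial markers 1 was lower, at 476 to 730 CPM in WT and 444 to 490 CPM in KL-/-. The summed ranges of the fibro-adipogenic, macrophage and endothelial markers overlapped between the genotypes. In edgeR's test 0 of 5 satellite cell, 0 of 7 pericyte and smooth muscle, 0 of 3 measured adipocyte and 0 of 1 measured erythroid markers were called.

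The family spanned a wide range of levels in WT muscle. Per length, in RPKM (CPM divided by the gene length in kilobases), the level in WT muscle was highest for *Slc38a4* at 37.9 ± 4.14 (SD, n = 4) and *Slc38a2* at 30.6 ± 5.78. These neighbours overlapped in their libraries, since *Slc38a4* ranged from 33.2 to 43.0 and *Slc38a2* from 22.8 to 35.2. Then came *Slc7a2* at 12.9 ± 1.31, *Slc3a2* at 9.56 ± 0.66 and *Slc1a5* at 4.45 ± 0.45, and the ranges of these 3 did not meet. *Slc7a1* at 0.92 ± 0.14 and *Slc7a5* at 0.79 ± 0.21 were lowest and overlapped.

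In KL-/- muscle the order changed at the top. *Slc38a2* came first, at 32.3 ± 14.0 RPKM (SD, n = 4), followed by *Slc7a2* at 21.9 ± 3.69 and *Slc38a4* at 15.4 ± 4.74. The ranges of these 3 overlapped, with *Slc38a2* alone spanning 15.3 to 47.7. Below them the order was as in WT muscle, with *Slc3a2* at 10.02 ± 0.64, *Slc1a5* at 5.99 ± 2.21, *Slc7a1* at 0.76 ± 0.12 and *Slc7a5* at 0.59 ± 0.13. *Slc3a2* and *Slc1a5* just overlapped, since the highest *Slc1a5* library reached 9.18 and the lowest *Slc3a2* library was at 9.15, and *Slc7a1* and *Slc7a5* overlapped again.

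**Figure D1:**
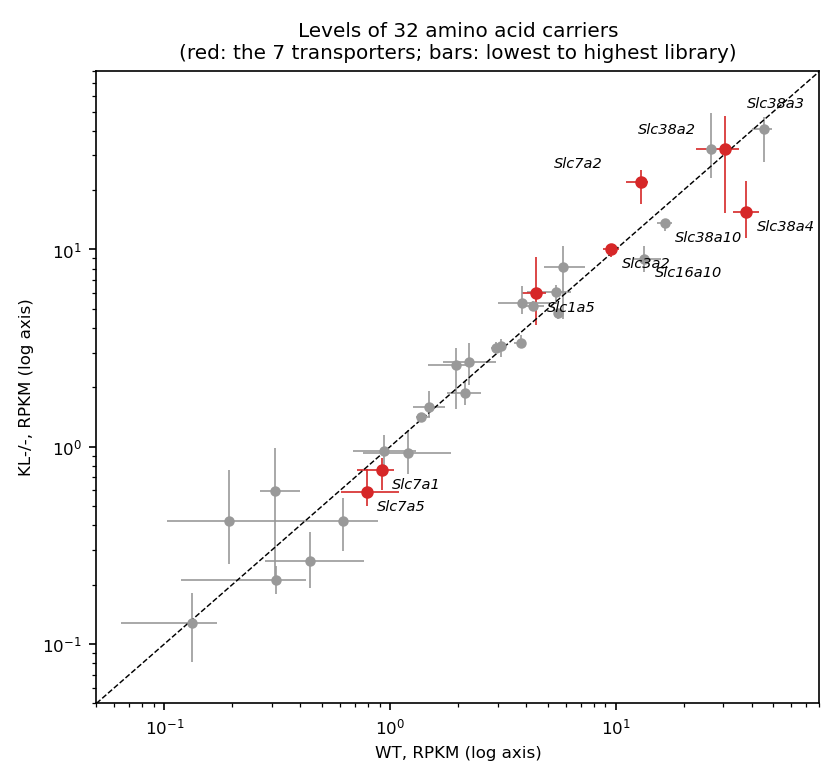
Mean level of 32 amino acid carriers per length in WT (horizontal axis) and KL-/- muscle (vertical axis), in RPKM on log axes, with the 7 transporters in red, the other measured carriers in grey, and bars from the lowest to the highest of 4 libraries. *Slc38a4* lies below the dashed line of equal levels (37.9 in WT, 15.4 in KL-/-) and *Slc7a2* above it (12.9 and 21.9), while *Slc38a2* has the widest vertical bar of the 7.

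Set among all 32 measured carriers, *Slc38a4* ranked 2 by level in WT muscle and 5 in KL-/- muscle, and *Slc7a2* moved from rank 7 to rank 4. *Slc38a3*, another glutamine carrier of the same family, held rank 1 in both genotypes, and *Slc38a2* held rank 3. *Slc7a1* and *Slc7a5* stood near the bottom in both, at ranks 25 and 26 in WT muscle. The ranking was made after the values had been seen and carries no test.

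*Slc38a4* encodes SNAT4, a sodium-coupled carrier of small neutral amino acids, and in the mouse the gene is imprinted. It lies on chromosome 15 at 96994823 to 97055956 (mm10, minus strand). Its levels in WT muscle were 169, 131, 154 and 143 CPM in replicates 1 to 4, and in KL-/- muscle they were 45.2, 87.8, 54.2 and 55.5 CPM. Every KL-/- library was below every WT library, and KL-/- replicate 2 was the closest to the WT range. The mean fell from 149 ± 16.3 CPM to 60.7 ± 18.7 CPM (SD, n = 4). The log2 fold change was -1.30 (SE 0.18, 95% interval -1.71 to -0.89, FDR 0.00475). By size, 127 of the 12551 genes had a more negative log2 fold change. Without KL-/- replicate 3, the library of the other batch date, it was -1.25 (FDR 0.0173). In whole muscle, fewer cells of a type and less RNA per cell cannot be told apart. Of the fibro-adipogenic, macrophage and endothelial markers, 3 of 8, 2 of 9 and 1 of 8 were also called lower. Their part in the fall of *Slc38a4* was not tested.

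*Slc38a2* encodes SNAT2, a carrier of the same class known to be raised by amino acid shortage. It lies on the same chromosome at 96687392 to 96699698 (minus strand), 295.1 kb from *Slc38a4*, with 0 counted genes between them. Its levels were 163, 105, 137 and 161 CPM in WT replicates 1 to 4, and 221, 70.7, 178 and 129 CPM in the KL-/- replicates. The KL-/- libraries lay both above and below the WT range. The means were 142 ± 26.7 and 149 ± 64.6 CPM (SD, n = 4), and the log2 fold change was 0.08 (SE 0.29, 95% interval -0.58 to 0.74, FDR 0.876). The interval holds both falls and rises, so a change of either sign within it was not excluded. The sign depended on the scaling and on single libraries. *Slc38a1*, the third gene of this group on chromosome 15 and 44.5 kb from *Slc38a2*, encodes SNAT1 and was rare, with means of 1.11 and 1.07 CPM in WT and KL-/- muscle and a log2 fold change of -0.08 (FDR 0.897).

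The balance between the 2 carriers differed from mouse to mouse. Per length, *Slc38a2* was at 0.69 to 0.95 of the level of *Slc38a4* in the 4 WT libraries. In KL-/- muscle the ratio was 4.15, 0.68, 2.79 and 1.97 in replicates 1 to 4. *Slc38a2* thus exceeded *Slc38a4* in 3 of 4 KL-/- libraries and in 0 of 4 WT libraries, and KL-/- replicate 2 had a ratio just below the WT range. That library held the highest *Slc38a4* and the lowest *Slc38a2* of its group, and KL-/- replicate 1 held the reverse.

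**Figure D2:**
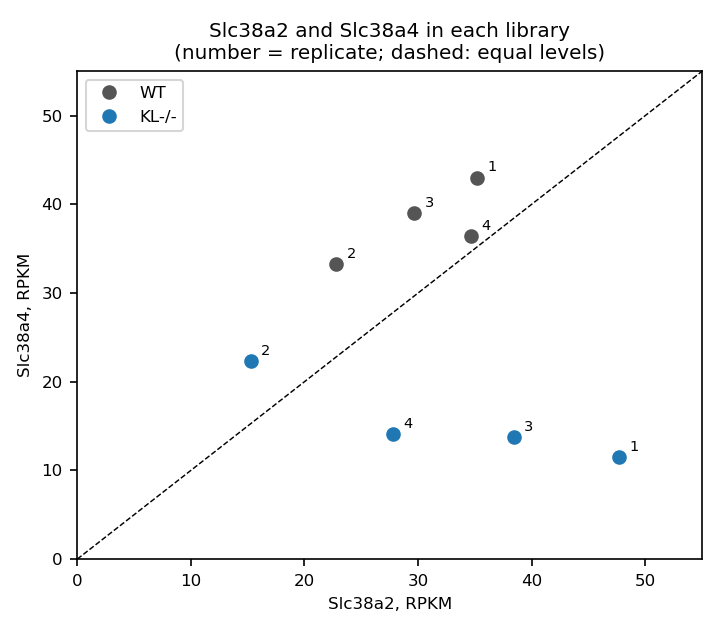
Levels of *Slc38a2* (horizontal axis) and *Slc38a4* (vertical axis) in each library, in RPKM, with the replicate number beside each point and a dashed line at equal levels. All 4 WT libraries and KL-/- replicate 2 lie above the line, and KL-/- replicates 1, 3 and 4 lie below it.

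The start regions of these chromosomal neighbours are shown because *Slc38a4* passed the test and *Slc38a2* did not. The 250 bases before the RefSeq start (GRCm38.p6, minus strand, read 5′ to 3′) are given with every CG dinucleotide in capitals. For *Slc38a2* the window is chr15:96699729-96699978, and for the start of *Slc38a4* farthest upstream it is chr15:97055957-97056206.
Slc38a2: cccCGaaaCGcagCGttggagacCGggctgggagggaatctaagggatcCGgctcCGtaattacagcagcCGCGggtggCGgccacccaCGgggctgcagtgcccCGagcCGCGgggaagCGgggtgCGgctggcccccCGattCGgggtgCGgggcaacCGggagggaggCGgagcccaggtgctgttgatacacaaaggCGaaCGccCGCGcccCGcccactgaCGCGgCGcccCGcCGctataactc
Slc38a4: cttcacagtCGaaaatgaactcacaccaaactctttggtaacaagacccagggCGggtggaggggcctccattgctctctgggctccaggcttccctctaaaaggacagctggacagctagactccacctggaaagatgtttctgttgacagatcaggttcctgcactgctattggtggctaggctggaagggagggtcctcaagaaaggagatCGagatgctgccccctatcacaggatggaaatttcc

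The *Slc38a2* window had a GC content of 72.0% and 30 CG dinucleotides, above 93.1% of 32841 mouse windows of this length by GC content. The *Slc38a4* window shown had 52.8% GC, close to the median window with 52.4%, and 3 CG dinucleotides where the median window had 6. Windows at its other RefSeq starts had 46.0% and 47.2% GC, with 5 CG dinucleotides each. Which start is used in muscle was not examined. RefSeq gave windows for 4 of the 7 genes, *Slc3a2*, *Slc38a2*, *Slc38a4* and *Slc7a1*. A search of both strands for TGATGNAA, the letters of the element bound by ATF4, found no match in any window of these 4, and neither did a search for the E-box letters CACGTG. Of all windows 3.45% held the first motif and 6.023% the second, so a window without either is the usual case. The windows end at the start, and bases after it, in exons or introns, were not searched. The search therefore cannot tell whether these genes hold such an element.

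*Slc7a2* encodes CAT2, a carrier of arginine, lysine and ornithine. It lies on chromosome 8 at 40862367 to 40922070 (mm10, plus strand). Its levels were 108, 103, 110 and 86.9 CPM in WT replicates 1 to 4. In KL-/- muscle they were 187, 200, 170 and 133 CPM. Every KL-/- library was above every WT library, and replicate 4 was the lowest in each group. The means were 102 ± 10.3 and 172 ± 29 CPM (SD, n = 4). The log2 fold change was 0.76 (SE 0.12, 95% interval 0.48 to 1.04, FDR 0.00729), and 275 genes had a larger one. Without KL-/- replicate 3 it was 0.77 (FDR 0.0217). Schwann cell markers were also higher in KL-/- muscle, as was the summed level of the myofibre markers, of which 0 of 8 were called, and their part in this rise was not tested. Of the exon bases of *Slc7a2*, 163 overlap an antisense non-coding gene that was not counted, and the sources do not state whether the counting used strand, so reads from that stretch cannot be told apart.

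*Slc7a1* encodes CAT1, the cationic amino acid carrier found in most cells, and lies on chromosome 5 at 148327410 to 148399904 (minus strand), 2.553 Mb from *Kl*. It was much rarer than *Slc7a2* in TA muscle. Its levels were 5.19, 6.75, 7.55 and 7.14 CPM in WT replicates 1 to 4, and 5.82, 5.39, 4.39 and 6.37 CPM in the KL-/- replicates. The groups overlapped, and the log2 fold change was -0.27 (SE 0.15, 95% interval -0.62 to 0.07, FDR 0.242). Per length, *Slc7a2* exceeded *Slc7a1* by 11.2- to 19.1-fold in WT libraries and by 19.2- to 35.7-fold in KL-/- libraries.

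*Slc7a5* and *Slc3a2* encode LAT1 and 4F2hc, the light and heavy chains of an exchanger of leucine and other large neutral amino acids. *Slc3a2* lies on chromosome 19 at 8706882 to 8723369 (minus strand) and was the steadiest of the 7, at 28.2, 25.9, 28.3 and 30.7 CPM in WT and 27.1, 30.2, 31.6 and 29.7 CPM in KL-/- replicates 1 to 4. The log2 fold change was 0.07 (SE 0.07, 95% interval -0.10 to 0.23, FDR 0.573), a narrow interval around 0, and the sign turned with library totals (-0.053). *Slc7a5*, on chromosome 8 at 121881146 to 121907686 (minus strand), had only 37 to 101 counts per library. Its levels were 2.12, 2.54, 3.85 and 2.55 CPM in WT and 1.81, 1.77, 1.99 and 2.71 CPM in KL-/- muscle. WT replicate 3 was the highest, and 3 of 4 KL-/- libraries were below every WT library while replicate 4 was not. The log2 fold change was -0.42 (SE 0.23, 95% interval -0.92 to 0.09, FDR 0.231), and it was -0.21 (FDR 0.538) without WT replicate 3.

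The heavy chain was far more abundant than this light chain. Per length, *Slc3a2* exceeded *Slc7a5* by 8.74- to 15.8-fold in WT libraries and by 13.0- to 20.3-fold in KL-/- libraries. 4F2hc also serves other light chains, of which *Slc7a6*, *Slc7a7* and *Slc7a8* were measured. *Slc7a6* had a mean of 16.01 CPM in WT libraries and 19.3 CPM in KL-/- libraries (log2 fold change 0.27, FDR 0.0825), and *Slc7a8* at 15.5 and 21.6 CPM (log2 fold change 0.48, FDR 0.0841). *Slc7a7* was rare, at 1.54 and 1.05 CPM (log2 fold change -0.55, FDR 0.332), and none of these 3 passed the threshold. The 4 light chains summed per length to between 0.86 and 1.12 of the level of *Slc3a2* in WT libraries and between 1.13 and 1.197 in KL-/- libraries. This sum was formed after the values had been seen and is given as a description.

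*Slc1a5* encodes ASCT2, an exchanger of glutamine and other neutral amino acids, on chromosome 7 at 16781346 to 16798274 (plus strand). Its levels were 12.2, 13.6, 12.7 and 10.6 CPM in WT replicates 1 to 4. In KL-/- muscle they were 25.3, 14.2, 11.4 and 15.2 CPM. Replicate 1 stood well above the rest and replicate 3 lay within the WT range. The log2 fold change was 0.43 (SE 0.22, 95% interval -0.06 to 0.92, FDR 0.201). Without KL-/- replicate 1 it was 0.16 (FDR 0.445).

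**Figure D3:**
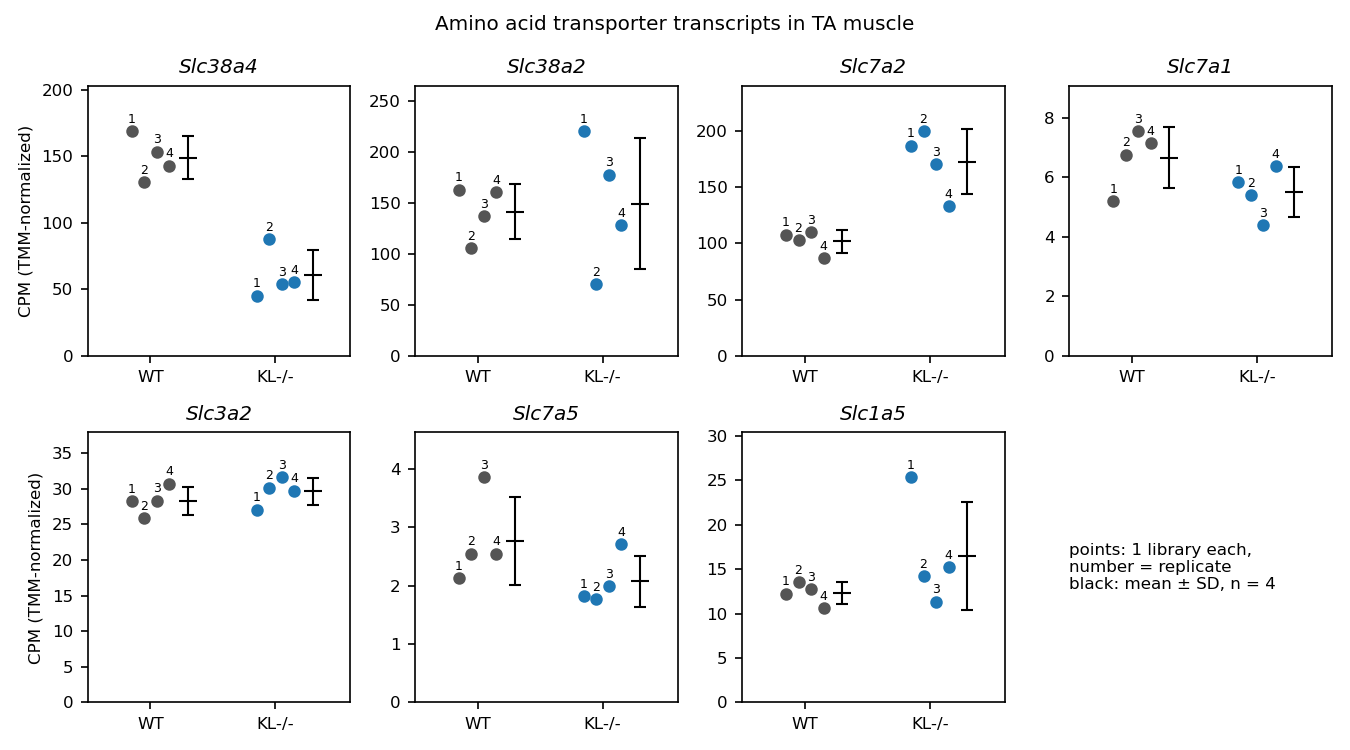
Level of each of the 7 transporters in every library, in TMM-normalized CPM on axes that start at 0, with the replicate number at each point and the mean ± SD (n = 4) in black. The genotypes are separate for *Slc38a4* (131 to 169 CPM in WT, 45.2 to 87.8 in KL-/-) and *Slc7a2* (86.9 to 110 and 133 to 200) and overlap for the other 5.

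**Figure D4:**
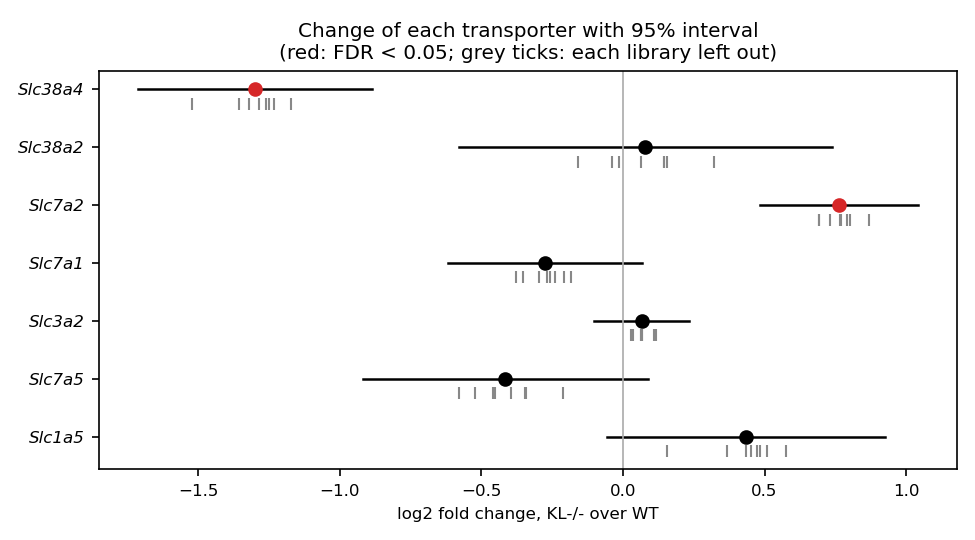
Log2 fold change of each transporter, KL-/- over WT, with its 95% interval as a black line and, as grey ticks, the value with each of the 8 libraries left out. The intervals of *Slc38a4* (-1.71 to -0.89) and *Slc7a2* (0.48 to 1.04) exclude 0, and the ticks of *Slc38a2* lie on both sides of 0.

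The summed level of the 7 transporters overlapped between the genotypes. Per length they summed to 84.4 to 107 RPKM in WT and 76.0 to 103 in KL-/- muscle. *Slc38a4* made up 37.1% to 40.1% of the sum in WT libraries and 11.2% to 28.0% in KL-/- libraries, while *Slc7a2* made up 11.3% to 15.5% and 22.3% to 31.9%. The shares of *Slc38a2* overlapped, at 27.0% to 35.4% in WT and 19.2% to 46.5% in KL-/- libraries.

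The genes whose pattern over the 8 libraries was closest to that of *Slc38a4*, by the root mean square difference of centred log2 CPM among 11996 genes, were *Aurka* with 0.18, *Cd59b* with 0.19 and *Mrgprh* with 0.20. All were rare, at 6.15, 3.64 and 4.52 CPM in WT and 2.36, 1.69 and 1.98 CPM in KL-/- muscle. The closest to *Slc7a2* were *Actn3* and *Particl*, each with 0.15, and *Acvr1b* with 0.17. *Actn3* encodes the alpha-actinin of fast fibres and averaged 6360 CPM in WT muscle and 10093 CPM in KL-/- muscle. *Particl* was at 3.45 and 5.33 CPM, and *Acvr1b*, an activin receptor, at 62.7 and 96.8 CPM.

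Among 25 other measured amino acid carriers, of 52 listed, 0 rose, 2 fell and 23 did not pass the test. The called share was 8%, beside 14.0% of all genes. The median log2 fold change was 0.04 beside -0.02 for all genes. At an unadjusted p under 0.05, edgeR gave 3 higher and 3 lower. The share of all genes under that p was not counted. It is at least the 14.0% called, since an FDR is never below its p. Whether these counts are many or few was not tested. At an FDR under 0.05 DESeq2 called 1 higher and 2 lower. *Slc16a10* encodes TAT1, a carrier of aromatic amino acids. It ranged from 79.1 to 105 CPM in WT and from 50.6 to 68.4 CPM in KL-/- muscle (log2 fold change -0.58, FDR 0.0178). Its FDR was 0.0499 without KL-/- replicate 3, the library of the other batch date. With replicate number as a block its call was lost (FDR 0.0569). *Slc38a10* of the SNAT family ranged from 82.6 to 96.4 CPM in WT and from 67.2 to 76.7 CPM in KL-/- muscle (log2 fold change -0.27, FDR 0.0300), a call that was lost without any one of WT replicates 2, 3 and 4 and KL-/- replicates 1, 3 and 4 (FDR 0.0518 to 0.0834). The groups did not overlap for either gene. *Slc38a3* was at 123 and 111 CPM (log2 fold change -0.15, FDR 0.519) and *Slc6a6*, the taurine carrier, at 163 and 200 CPM (log2 fold change 0.30, FDR 0.325).

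Of 31 genes that sense amino acids upstream of mTORC1, all measured, 1 rose, 0 fell and 30 did not pass. The called share was 3.23%, beside 14.0% of all genes, and the median log2 fold change was 0.03. At an unadjusted p under 0.05, edgeR gave 5 higher and 3 lower, where the share of all genes is again known only to be at least 14.0%. At an FDR under 0.05 DESeq2 called 3 higher and 0 lower. *Sesn1*, which encodes a member of the leucine-binding Sestrin family, was at 28.5, 25.6, 25.2 and 19.7 CPM in WT replicates 1 to 4 and at 32.9, 41.1, 56.1 and 47.8 CPM in KL-/- muscle. Every KL-/- library was above every WT library, with a log2 fold change of 0.85 (SE 0.16, FDR 0.0125). KL-/- replicate 3, the library of the other batch date, was the highest. Without it the log2 fold change was 0.72 (FDR 0.0313). *Sesn2* was at 3.09 and 2.71 CPM (log2 fold change -0.20, FDR 0.445), and *Slc38a9*, a lysosomal arginine sensor counted among the carriers, at 12.3 and 12.6 CPM (log2 fold change 0.04, FDR 0.740).

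Of 33 measured genes of ATF4 and the amino acid response, of 35 listed, 6 rose, 0 fell and 27 did not pass. The called share was 18.2%, all of it higher, beside 14.0% of all genes, 7.35% higher and 6.67% lower. The median log2 fold change was 0.14. At an unadjusted p under 0.05, edgeR gave 10 higher and 4 lower, where the share of all genes is again known only to be at least 14.0%. At an FDR under 0.05 DESeq2 called 6 higher and 3 lower, and limma-voom called 4 higher and 0 lower. Without KL-/- replicate 2, edgeR called 10 higher and 2 lower, and without KL-/- replicate 4 it called 2. Without WT replicate 2 or WT replicate 3 it called 3. *Eif4ebp1*, a repressor of translation initiation, ranged from 29.2 to 38.7 CPM in WT and from 51.6 to 76.7 CPM in KL-/- muscle (log2 fold change 0.99, FDR 0.00307). *Cebpb*, a transcription factor, ranged from 25.05 to 39.7 CPM and from 48.5 to 84.2 CPM (0.98 on the log2 scale, FDR 0.0127). *Gpt2*, the mitochondrial alanine transaminase, ranged from 277 to 377 CPM and from 432 to 542 CPM (0.48, FDR 0.0222). Its call was lost without KL-/- replicate 3 (FDR 0.0577) or replicate 4 (FDR 0.0534). For *Eif4ebp1*, *Cebpb* and *Gpt2* the highest library was KL-/- replicate 3, the library of the other batch date. Without it their log2 fold changes were 0.92, 0.78 and 0.41.

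The other 3 that rose varied more within KL-/- muscle. *Ddit4* encodes REDD1, an inhibitor of mTORC1. It was at 5.41 to 9.43 CPM in WT and at 17.0, 16.1, 141 and 41.5 CPM in KL-/- replicates 1 to 4. The log2 fold change was 2.85 (FDR 0.0266). Replicate 3, the library of the other batch date, was the highest, and without it the log2 fold change was 1.73 (FDR 0.0283). The call was lost without KL-/- replicate 4 (FDR 0.0537) or any one WT library (FDR 0.0534 to 0.0765), and under limma-voom (2.31, FDR 0.0813). *Atf3*, a stress-induced transcription factor, ranged from 1.63 to 3.19 CPM in WT and from 3.20 to 9.42 CPM in KL-/- muscle (1.38 on the log2 scale, FDR 0.0257), a call lost without WT replicate 1, 2 or 3 or KL-/- replicate 1 or 4 (FDR 0.0570 to 0.0703). *Stc2*, a secreted glycoprotein, ranged from 1.65 to 2.59 CPM and from 2.72 to 7.25 CPM (1.09, FDR 0.0360). KL-/- replicate 3 was again the highest, while *Atf3* was highest in replicate 4. The *Stc2* call was lost without any one WT library or KL-/- replicate 3 or 4 (FDR 0.0706 to 0.0914), and under limma-voom (FDR 0.0529). These genes also answer to signals other than amino acids. *Atf4* itself was at 149 and 172 CPM (0.21, FDR 0.329), *Asns*, asparagine synthetase, at 1.15 and 1.08 CPM (-0.05), and *Chac1*, a glutathione-degrading enzyme, at 45.9 and 58.4 CPM (0.35, FDR 0.520).

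**Figure D5:**
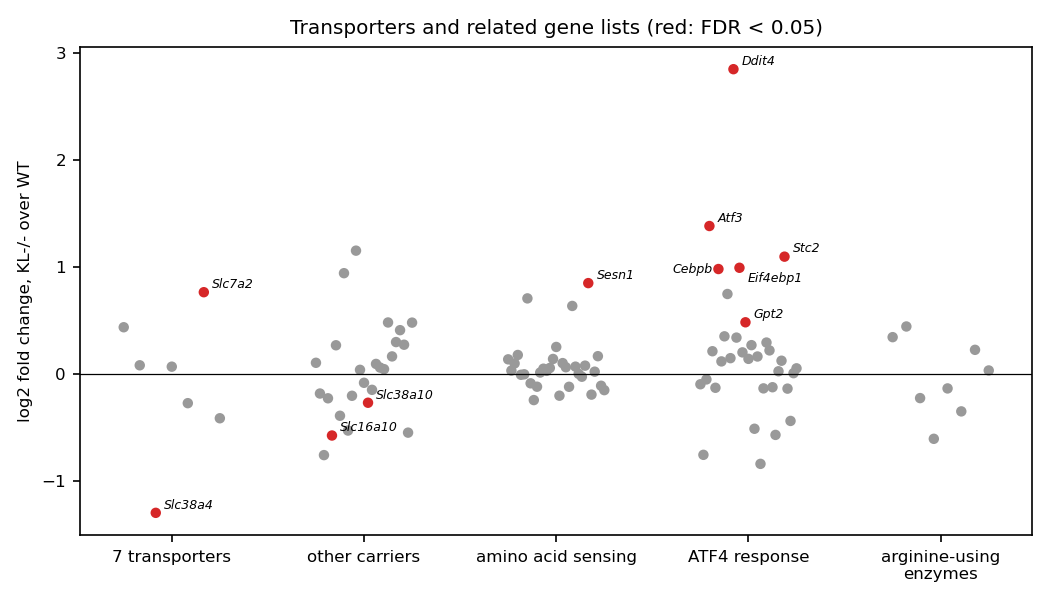
Log2 fold change, KL-/- over WT, of each measured gene in the family of 7 transporters and in the lists of 25 other carriers, 31 amino acid sensing genes, 33 genes of the ATF4 response and 8 arginine-using enzymes, with genes past an FDR of 0.05 in red and named. Red points lie on both sides of 0 among the 7 transporters, only below 0 among the other carriers and only above 0 in the sensing and ATF4 lists.

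Arginine is carried by CAT1 and CAT2. The list of arginine-using enzymes is loosely named, since *Asl* makes arginine and *Odc1* uses ornithine. Of its 8 measured members, 0 rose and 0 fell past the threshold. Of all genes 14.0% were called. The median log2 fold change of these enzymes was -0.05. At an unadjusted p under 0.05, edgeR gave 2 higher and 2 lower, where the share of all genes is again known only to be at least 14.0%. At an FDR under 0.05 DESeq2 and limma-voom each called 0. *Nos1*, the neuronal nitric oxide synthase found at the myofibre membrane, averaged 215 ± 56.2 CPM in WT libraries and 184 ± 28.2 CPM in KL-/- libraries (SD, n = 4), a log2 fold change of -0.23. *Odc1*, ornithine decarboxylase, was at 84.2 ± 17.3 and 66.0 ± 10.1 CPM (-0.35), and *Nos2*, the inducible synthase, at 8.17 ± 0.86 and 5.39 ± 1.91 CPM (-0.61, FDR 0.103). Other members had positive values, among them *Asl*, argininosuccinate lyase, at 4.32 ± 0.69 and 5.46 ± 0.48 CPM (0.34, FDR 0.126), *Prmt1*, an arginine methyltransferase, at 70.4 ± 1.43 and 82.1 ± 10.6 CPM (0.22, FDR 0.114), and *Gatm*, an enzyme of creatine synthesis, at 4.61 ± 1.83 and 6.32 ± 2.94 CPM (0.44, FDR 0.403).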

How the data were processed

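The starting point was the deposited table of raw counts, with a column for each of 4 WT and 4 KL-/- TA muscles and no normalization. It held 12551 genes and lacked others, such as *Kl*, so shares of all genes refer to the genes it held. Before deposit, the authors had mapped reads with STAR (mm10), dropped alignments of low quality and used featureCounts to count by gene. The annotation version and strand setting are not given in the sources used here. The methods speak of mRNA sequencing and the labels of total RNA.

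Counts were tested in R 4.3.3 with the quasi-likelihood test of edgeR 4.0.16, TMM factors and genotype as the only term, over all 12551 genes with Benjamini-Hochberg adjustment, at an FDR under 0.05. The quasi-likelihood version was chosen after the output of both versions had been seen, and both called the same number of the 7 transporters. CPM used TMM-scaled totals, and levels per length divided CPM by the gene length in the table. Named genes were the 7 transporters, up to 6 genes per list with the largest changes past the threshold, and the 3 genes closest in pattern to each called transporter. The uncalled genes named beside them were chosen after their values were seen. The transporters and lists were chosen with earlier results of these data known, and older symbols of list genes were matched after list counts had been seen. Counts of CG dinucleotides were likewise added later. Alternatives were RLE factors, library totals, DESeq2 1.42.0, limma-voom (limma 3.58.1), the likelihood ratio test, the edgeR 3 quasi-likelihood method, other count filters, a replicate block and each library left out. Promoter windows are from RefSeq.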

Additional observations from a re-analysis of the deposited data

Results flagged for a closer look

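*Slc38a10*, a SNAT family carrier, was at 67.2 CPM in KL-/- replicate 2, below the other 3 KL-/- libraries, of which the nearest was at 75.2 CPM. This gap was 0.84 of the range of the group, above the limit of Dixon's test for 4 samples. It was the 1 group of 32 tested, each a gene in a genotype, with a sample this far from the others, and chance gives about 1 in 20.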

How the results depend on the processing

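*Slc38a4* and *Slc7a2* were called in all 8 fits that left out a library and in 8 other settings, and the count was 2 of 7 in each. Leaving off the filter on low counts gave the reported fit itself, since that filter kept all 12551 genes. The log2 fold change of *Slc38a4* ranged from -1.52 to -1.17 with a library left out and from -1.42 to -1.29 in the other settings (largest FDR 0.0245), and that of *Slc7a2* from 0.69 to 0.87 and from 0.64 to 0.77 (largest FDR 0.0251). None of the other 5 was called in any of these fits.

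*Slc38a2* had no stable sign. Its log2 fold change was -0.034 with library totals, -0.024 with limma-voom and -0.018 with the replicate block, and from -0.16 to 0.32 with a library left out. *Slc3a2* turned to -0.053 with library totals. With library totals the all-gene median shifted from -0.02 to -0.13 on the log2 scale, and the called genes from 922 higher and 837 lower to 492 higher and 2127 lower. With library totals 4 other carriers, 6 sensing genes, 10 ATF4 genes and 1 arginine-using enzyme were called.

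DESeq2 called 3 sensing genes, and limma-voom and the likelihood ratio test 2 each. DESeq2 called 2456 genes in all. With a library left out, the counts ran from 762 to 2755 over all genes, from 1 to 3 for other carriers, from 1 to 3 for sensing genes, from 2 to 12 for ATF4 genes and from 0 to 1 for arginine-using enzymes. All genes numbered 780 without WT replicate 2, 775 without WT replicate 3, 762 without KL-/- replicate 3 and 778 without KL-/- replicate 4, and 2755 without KL-/- replicate 2, while fits without a library also have fewer samples. *Slc38a10* kept its call in 2 of these 8 fits, *Stc2* in 2, *Ddit4* and *Atf3* in 3 each and *Gpt2* in 6.

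Deviations of same-numbered samples correlated at -0.15, 0.18, -0.37 and 0.02, and the reported fit treated the samples as unpaired. With 4 libraries per group, these values cannot exclude a shared litter or handling. With the replicate block 671 genes were called in all, with 0 other carriers and 3 ATF4 genes. At 37 to 101 counts per library, *Slc7a5* was the member whose precision depth limited most.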
